A study of Mus musculus with 6 samples.

Results

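The genes of the phagocyte NADPH oxidase were compared between BV2 cells with and without sTREM-1, the soluble form of a myeloid receptor. BV2 is an immortalized line of mouse microglia. The CON group was left untreated, and the sTREM-1 group received the recombinant protein, 1 μg/mL, during 6 h. RNA was sequenced from 3 libraries of each group, so both groups share the same line and differ in the added protein. The control received no other protein, and the sources used here name no vehicle or inactive protein for the untreated cells. Of the 46095 gene symbols in the count table, 6 were taken by name: Cybb, Cyba, Ncf1, Ncf4, Rac2 and Hvcn1. All 6 passed the filter on low counts, which left 14120 genes for testing.

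The oxidase, also called the NOX2 complex, passes electrons from cytosolic NADPH across the membrane to oxygen and so makes superoxide in the phagosome or outside the cell. Cybb encodes the catalytic subunit gp91phox and Cyba its membrane partner p22phox, and each protein needs the other to be stable. At rest the cytosolic subunits stay apart from the membrane. When the cell is stimulated, p47phox (Ncf1) is phosphorylated and docks on p22phox, p40phox (Ncf4) binds a phosphoinositide of the phagosome membrane, and the GTPase Rac2 joins the complex. Hvcn1 encodes a voltage-gated proton channel that lets protons follow the electrons and keeps the reaction going. In microglia this oxidase is a main source of superoxide.

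After sTREM-1, the RNA of the catalytic subunit Cybb rose by 35.1%, that of the organizer Ncf1 by 27.8% and that of Ncf4 by 14.3%. Hvcn1 fell by 23.5%. Cyba and Rac2 did not pass the test. Thus 4 of the 6 genes were called, 3 higher and 1 lower, where a call means that the quasi-likelihood test of edgeR gave a p-value under 0.05 after Benjamini-Hochberg adjustment. Among all tested genes 30.5% were called, 16.5% as higher and 14.1% as lower. The groups did not overlap for the same 4 genes, against 40.7% of all tested genes, made up of 21.3% with the sTREM-1 libraries higher and 19.4% with them lower. The median log2 fold change was 0.11 over the 6 genes and -0.0017 over all tested genes, and the median size of the change was 0.27 against 0.13.

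RefSeq promoter windows of build GRCm38.p6 were found for 3 of the 6 genes, Cybb, Ncf1 and Cyba, and only these are shown. They encode the membrane pair and the subunit that docks on it. The 250 bases before the transcript start are printed 5′ to 3′ on the gene's strand, and capitals mark each match of GAAA, any 2 bases and GAAA again, the core of the interferon-stimulated response element (the ISRE core), searched on both strands. The RefSeq start of Cybb lies inside the span that GENCODE gives the gene.
Cybb (chrX:9469325-9469574, minus strand): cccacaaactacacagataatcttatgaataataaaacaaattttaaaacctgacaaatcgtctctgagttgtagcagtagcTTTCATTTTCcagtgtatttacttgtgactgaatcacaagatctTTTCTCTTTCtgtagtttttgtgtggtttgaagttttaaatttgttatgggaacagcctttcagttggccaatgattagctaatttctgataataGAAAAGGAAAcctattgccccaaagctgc
Ncf1 (chr5:134229626-134229875, minus strand): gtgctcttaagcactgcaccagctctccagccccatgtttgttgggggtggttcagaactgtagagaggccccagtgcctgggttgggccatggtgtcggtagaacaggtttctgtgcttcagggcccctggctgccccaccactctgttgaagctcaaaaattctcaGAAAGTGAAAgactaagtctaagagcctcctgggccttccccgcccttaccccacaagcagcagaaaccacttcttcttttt
Cyba (chr8:122432941-122433190, minus strand): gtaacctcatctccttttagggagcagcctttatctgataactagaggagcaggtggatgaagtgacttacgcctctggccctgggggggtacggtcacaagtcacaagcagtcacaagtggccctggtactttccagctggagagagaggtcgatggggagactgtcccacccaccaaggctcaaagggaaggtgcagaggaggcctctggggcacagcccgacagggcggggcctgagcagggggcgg
Each window searched was 300 bases long and ran on for 50 bases past the start. The Cybb window held 3 matches of the ISRE core, the Ncf1 window held 1 and the Cyba window held 0, and 3.44% of all 32851 promoter windows held at least 1. The matches in the Cybb window lay at -168 to -159 and at -124 to -115 on the opposite strand, and at -29 to -20 on the gene's strand, counted from the transcript start. The single match in the Ncf1 window lay at -82 to -73. The letters GAGGAA, a core of the type bound by the myeloid factor PU.1, were matched 1 time in the Cybb window, 10 to 15 bases after the start on the opposite strand, and 0 times in the other two. They were held by 28.3% of all windows. The longer GAGGAAG was held by 13.6% of all windows and by 0 of these 3. The shorter GGAA, which lies inside GAGGAA and can overlap the ISRE core, was held by 96.0% of all windows and by each of the 3. A match of letters is a description, and binding of a factor was not measured.

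Depth was similar in the 6 libraries. The totals ranged from 40663981 to 40779439 counts in the CON group and from 40070633 to 45877107 counts in the sTREM-1 group. The 6 genes together took 0.114% to 0.116% of all counts in CON libraries and 0.129% to 0.130% in sTREM-1 libraries. Within a group, the chi-square of the counts was 3.47 to 4.995 per gene, above what sampling alone gives, against 20.4 to 22.4 between groups, and each library was kept as a replicate. Libraries came from 1 cell line, and the sources used here do not say whether each came from its own well. The p-values therefore measure the spread between libraries of this line. Levels are given as CPM, a gene's count divided by the TMM-scaled total of its library in units of mega-counts (edgeR's usual unit). In bulk RNA, fewer cells that express a gene and less of its RNA per cell cannot be told apart.

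The cells were checked against marker genes. Of 15 macrophage and microglia markers, 13 passed the filter, among them Cd68, Csf1r and Itgam, which encode a lysosomal protein, the CSF1 receptor and an integrin chain. Aif1, which encodes IBA-1, and Sall1, a microglial transcription factor, were at 0 counts in all 6 libraries, which allows up to 0.0657 to 0.0756 CPM per library. The homeostatic markers P2ry12 and Tmem119 had at most 73 counts in any library. The summed level of the 15 genes was 3322 to 3353 CPM in CON libraries and 3593 to 3722 CPM in sTREM-1 libraries. Of the 13 tested markers, 6 were called higher and 1 lower, or 53.8% called against 30.5% of all tested genes. Laptm5 was among those called higher, although its groups overlapped. It had 2940 counts in sTREM-1 replicate 3 against 175 to 195 in the other libraries. Cx3cr1, also called higher, was scarce, with 33 to 45 counts in CON and 56 to 93 counts in sTREM-1 libraries. Fcer1g was called lower, with a log2 fold change of -0.14, and 6 markers, Cd68 among them, were not called. Csf1r rose from 521 ± 3.13 to 753 ± 20.5 CPM (SD, n = 3 each). The part of this shift in the change of the oxidase genes was not tested. Neutrophils carry the same oxidase. Of 10 neutrophil markers, Ly6g, Mpo, Ltf, Cxcr2 and S100a9 were at 0 in every library, and the list summed to 1.46 to 1.81 CPM in CON and 0.941 to 1.90 CPM in sTREM-1 libraries. Markers of lymphocytes, neurons and astrocytes summed to at most 0.0975, 0.302 and 0.479 CPM in any library. Oligodendrocyte markers summed to 25.0 to 25.9 CPM in CON and 25.7 to 29.1 CPM in sTREM-1 libraries, most of it from Cnp, and Mog was at 0.

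Of the membrane pair, Cybb rose and Cyba did not pass the test. Cybb lies on chromosome X at 9435252 to 9487771 (GRCm38), and its level was 266, 274 and 262 CPM in the CON libraries and 361, 362 and 361 CPM in the sTREM-1 libraries. All sTREM-1 libraries lay above all CON libraries, and they lay closer to each other than the CON libraries did. Its log2 fold change was 0.43 (standard error 0.02, 95% interval 0.38 to 0.48, edgeR adjusted p = 2.1e-14), a change larger in size than that of 89.2% of tested genes. Cyba, on chromosome 8 from 122424776 to 122432930, had 342, 355 and 348 CPM in the CON group and 353, 356 and 353 CPM after sTREM-1. The groups of Cyba overlapped. Its log2 fold change was 0.02 (standard error 0.02, adjusted p = 0.549), with a 95% interval of -0.03 to 0.07.

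The cytosolic subunits Ncf1 and Ncf4 both rose. Ncf1, on chromosome 5 from 134220053 to 134229625, had 154, 147 and 146 CPM in CON libraries and 195, 191 and 187 CPM in sTREM-1 libraries, without overlap. The log2 fold change was 0.35 (standard error 0.03, 95% interval 0.29 to 0.41, adjusted p = 5.99e-11). Gtf2ird2 lies on the opposite strand and shares sequence with 9 exons annotated for Ncf1, and the sources used here do not say whether counting used the strand. Gtf2ird2 had 11.1 ± 0.896 CPM in the CON group and 10.2 ± 0.419 CPM after sTREM-1 (SD, n = 3 each), so it stayed far below Ncf1 in both groups. Ncf4, on chromosome 15 from 78244801 to 78262580, had 96.1, 95.1 and 96.0 CPM in the CON group and 114, 105 and 109 CPM after sTREM-1. Its CON libraries were nearly equal, its sTREM-1 libraries were more spread, and the groups did not overlap. The log2 fold change was 0.19 (standard error 0.03, 95% interval 0.12 to 0.26, adjusted p = 4.6e-05).

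Rac2, the GTPase of the complex in blood cells, lies on chromosome 15 from 78559167 to 78572783. It had 269, 269 and 272 CPM in CON libraries and 266, 272 and 278 CPM in sTREM-1 libraries. The sTREM-1 libraries lay on both sides of the CON libraries. The log2 fold change was 0.01 (standard error 0.03, adjusted p = 0.793), with a 95% interval of -0.04 to 0.06. Without sTREM-1 replicate 3 the value was -0.0058, so that no direction can be given.

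The proton channel gene Hvcn1, on chromosome 5 from 122206804 to 122242297, was the only one of the 6 called lower. It had 17.9, 16.3 and 14.9 CPM in CON libraries, from 733, 667 and 609 counts. In sTREM-1 libraries it had 12.4, 13.0 and 12.1 CPM, from 567, 554 and 481 counts. The CON libraries were spread, and the lowest of them still lay above the highest sTREM-1 library. The log2 fold change was -0.39 (standard error 0.08, 95% interval -0.56 to -0.22, adjusted p = 0.000507), and over the fits that each left out 1 library it ran from -0.45 to -0.32 with adjusted p-values up to 0.0108. Tctn1 on the opposite strand shares sequence with 4 exons annotated for Hvcn1. It had 12.9 ± 0.80 CPM in the CON group and 12.5 ± 0.326 CPM after sTREM-1 (SD, n = 3 each, edgeR adjusted p = 0.746), a level similar to that of Hvcn1, so reads of the pair may have been mixed if strand was not used.

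**Figure D1:**
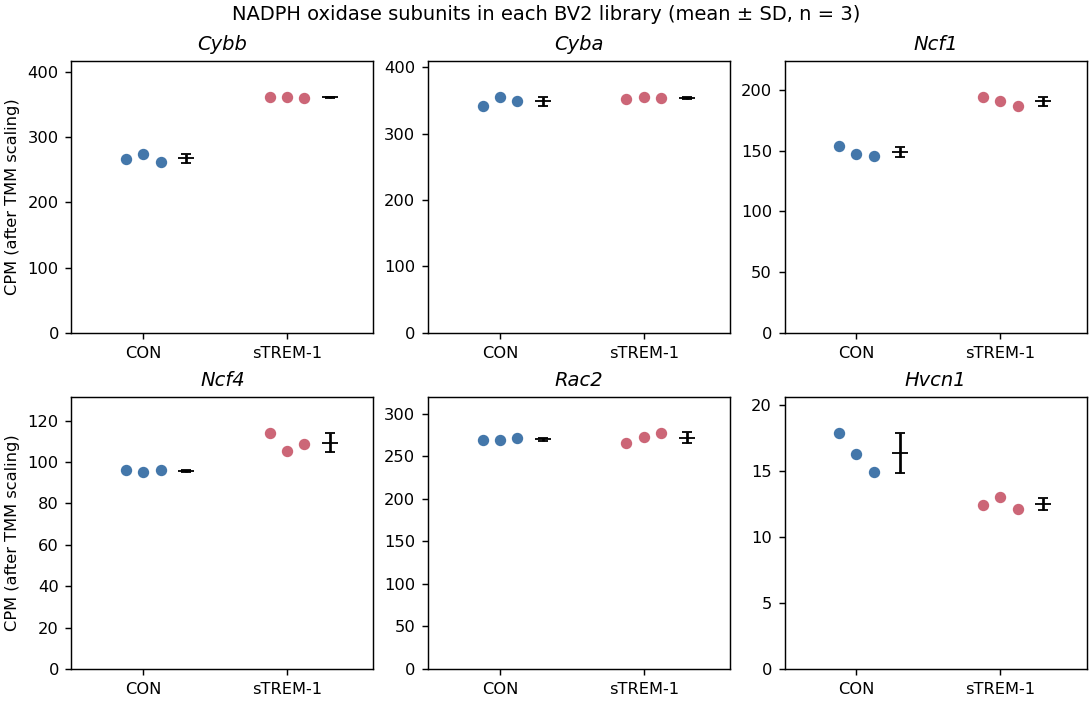
Level of each oxidase gene in CPM after scaling (vertical axes, from 0) in the 3 CON and the 3 sTREM-1 libraries (points), with the mean and SD of each group as a black bar beside them. Cybb, Ncf1 and Ncf4 lay higher and Hvcn1 lower in all sTREM-1 libraries, while the groups of Cyba and Rac2 overlapped.

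**Figure D2:**
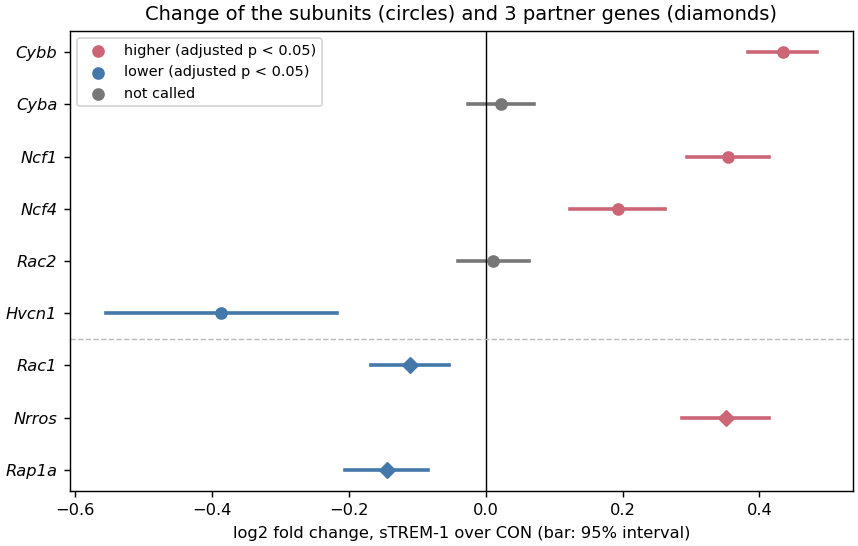
Log2 fold change after sTREM-1 (horizontal axis) of the 6 oxidase genes (circles) and of Rac1, Nrros and Rap1a (diamonds), with 95% intervals as bars and colours for the call. The intervals of Cyba and Rac2 include 0, and that of Cybb runs from 0.38 to 0.48.

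Levels of different genes were compared per length, as CPM per kilobase of the longest coding transcript. In the CON group the order was Cyba with 469 ± 8.87, Rac2 with 88.9 ± 0.590, Ncf4 with 65.4 ± 0.411, Cybb with 56.3 ± 1.35, Ncf1 with 54.0 ± 1.55 and Hvcn1 with 5.83 ± 0.533 CPM per kilobase (SD, n = 3). Cybb and Ncf1 were not separated in this order, as their CON libraries overlapped at 55.1 to 57.7 and 52.9 to 55.8. After sTREM-1, Cybb had 76.0 ± 0.185, Ncf4 74.7 ± 3.09 and Ncf1 69.0 ± 1.47 CPM per kilobase. Cybb and Ncf4 then overlapped, and Ncf1 lay below both. The first, second and last places stayed with Cyba, Rac2 and Hvcn1. Per kilobase of coding sequence the order was Cyba, Rac2, Cybb, Ncf1, Ncf4 and Hvcn1 in both groups, so the order in the middle depends on the length used.

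Ratios of counts within a library do not depend on how libraries were scaled. They are not per length, so only their change was read. The ratio of Cybb to Cyba was 0.778, 0.772 and 0.751 in CON libraries and 1.02, 1.02 and 1.02 in sTREM-1 libraries, a rise of 1.33-fold with no overlap. The ratio of Hvcn1 to Cybb was 0.0673, 0.0593 and 0.0570 in CON libraries and 0.0344, 0.0359 and 0.0336 in sTREM-1 libraries. It fell to 0.567 of its CON value, the largest change of the 6 ratios. In CPM, every sTREM-1 library lay above all CON libraries for the catalytic subunit and below all of them for the proton channel.

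For the cytosolic pair the groups did not overlap either. The ratio of Ncf1 to Ncf4 was 1.56 ± 0.0413 in the CON group and 1.74 ± 0.0581 after sTREM-1 (SD, n = 3 each), and that of Cyba to Ncf4 was 3.64 ± 0.0905 and 3.24 ± 0.146. The ratio of Cybb to Ncf1 was 1.79 ± 0.0677 and 1.90 ± 0.0401, and the groups overlapped. For Rac2 and its widely expressed relative Rac1, the ratio was 1.11 ± 0.0467 in the CON group and 1.21 ± 0.0236 after sTREM-1, without overlap. In exact permutation tests over the 6 libraries (two-sided) Cybb to Ncf1 had p = 0.2, also 0.2 after adjustment. The other 5 ratios had an exact p = 0.1, the smallest that 3 libraries against 3 allow, and an adjusted p of 0.12 over 6 ratios, so no ratio could pass the threshold in this design.

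**Figure D3:**
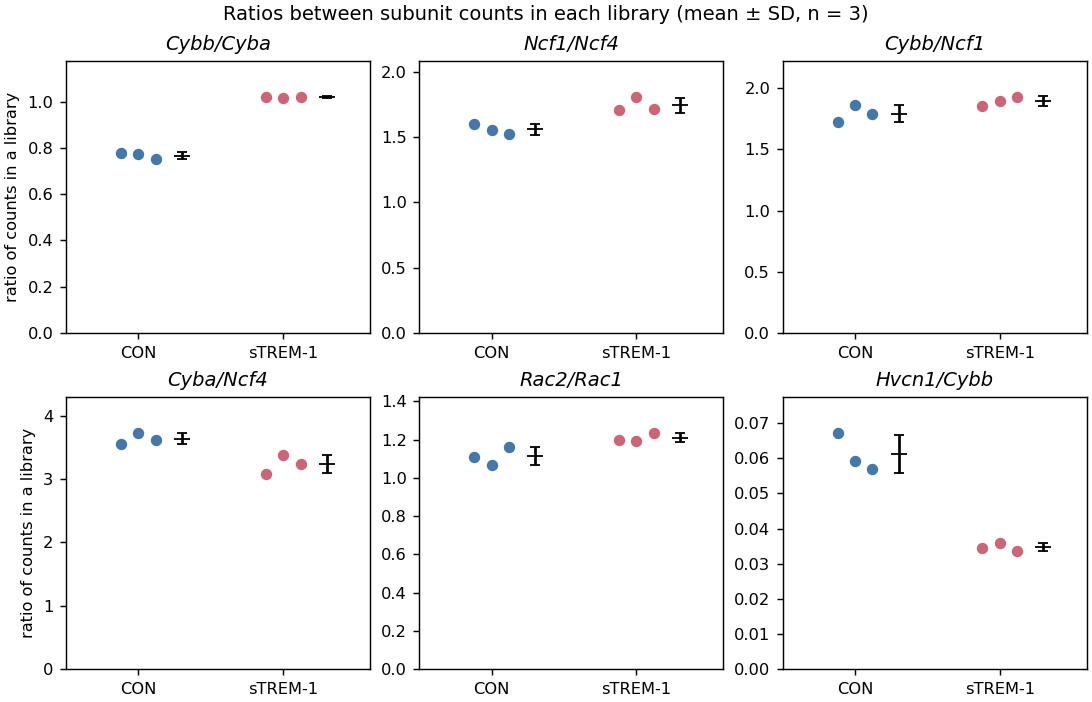
Ratio of the counts of 2 genes in each library (vertical axes, from 0, no unit) for the 6 ratios, with CON libraries on the left, sTREM-1 libraries on the right, and the mean and SD of each group as a black bar. Cybb to Cyba was near 0.77 in CON and 1.02 in sTREM-1 libraries, and Hvcn1 to Cybb fell in all sTREM-1 libraries.

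Genes that act on the assembled complex were called in both directions. Of 5 tested assembly partners, 3 were higher and 2 lower, against 30.5% called among all genes. Nrros encodes a protein of the endoplasmic reticulum that promotes degradation of gp91phox. It had 107, 110 and 111 CPM in CON libraries and 139, 143 and 135 CPM in sTREM-1 libraries, and its log2 fold change was 0.35 (standard error 0.03, adjusted p = 2.79e-10). It thus rose together with Cybb. Rac1 fell, with a log2 fold change of -0.11 (adjusted p = 0.00266), and so did Rap1a, a small GTPase found with the membrane pair, at -0.15 (adjusted p = 0.000287). Daglb shares sequence with 2 exons annotated for Rac1 on the opposite strand and rose from 16.5 to 21.4 CPM, far below the 225 CPM of Rac1 after sTREM-1.

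Relatives of Cybb were scarce. Of 9 genes of other NADPH oxidases and their partners in the table, 2 passed the filter on low counts. Nox3, known for its role in the inner ear, had 459, 413 and 459 counts in CON libraries and 329, 268 and 287 counts in sTREM-1 libraries. It fell from 10.8 ± 0.668 to 6.91 ± 0.537 CPM (SD, n = 3 per group), and its log2 fold change was -0.65 (edgeR adjusted p = 6.1e-06). Noxo1, which encodes an organizer related to p47phox, had 33 to 58 counts and a log2 fold change of 0.32 (adjusted p = 0.497, 95% interval -0.32 to 0.95). Nox1, Nox4, Duox1 and Duox2 had at most 10 counts in any library.

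Upstream of the complex, the list of receptors that trigger the oxidative burst also held an inhibitory Fc receptor and a signaling chain. Of its 14 tested genes, 8 rose and 1 fell, or 64.3% called against 30.5% of all genes. Their median log2 fold change was 0.17. Tlr2, a receptor for bacterial lipoproteins, had a log2 fold change of 0.42 (adjusted p = 8.66e-12) and the IgG receptor Fcgr1 one of 0.26 (adjusted p = 2.1e-07). Fcer1g, the signaling chain of Fc receptors, fell from 384 ± 4.67 to 348 ± 4.97 CPM (SD, n = 3 per group), and its log2 fold change was -0.14. Of 23 tested kinases and phospholipases upstream of assembly, 8 rose and 1 fell, or 39.1%, with a median of 0.12. Among all tested genes 30.5% were called, 16.5% as higher and 14.1% as lower. The calls of this list thus lay mostly on the higher side. Pik3cg, a lipid kinase of leukocytes, had a log2 fold change of 0.32 and Syk, the kinase behind Fc receptors, one of 0.21. The gene that fell was Pla2g4a, cytosolic phospholipase A2, at -0.09, and without CON replicate 1 the list had 0 lower genes. Regulators of the Rac GTPase cycle were called in both directions, with 3 of 18 higher and 3 lower, or 33.3%, near the share of all genes. Abr and Racgap1, which both encode proteins that switch Rac off, had log2 fold changes of 0.13 and 0.22, while Elmo1 and Vav1, which help to load Rac with GTP, had -0.19 and -0.12. The remaining called genes, named after their values were seen, went the other way for these roles. Dock1, which loads Rac with GTP together with Elmo1, had 0.30 (adjusted p = 0.000129), and Bcr, which like Abr switches Rac off, had -0.27 (adjusted p = 0.0196).

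Of 16 tested transcription factors known to act on oxidase genes, 4 rose and 1 fell, or 31.2%, near the 30.5% of all genes. Irf8, a transcription factor of myeloid cells, was among those that rose, by 0.11 on the log2 scale (edgeR adjusted p = 0.00469). Cebpb fell, with a log2 fold change of -0.25. Spi1, which encodes PU.1, had a log2 fold change of 0.07 and an adjusted p of 0.0793, although its groups did not overlap.

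Genes for the supply of NADPH in the cytosol rose, and use of this NADPH by the oxidase was not measured. All 4 tested enzymes that make NADPH in the cytosol were called higher in sTREM-1 libraries, with a median log2 fold change of 0.41. Among all tested genes 30.5% were called, 16.5% as higher. Idh1, cytosolic isocitrate dehydrogenase, rose from 64.9 ± 1.56 to 96.4 ± 2.81 CPM (SD, n = 3 per group), and its log2 fold change was 0.57. G6pdx, the first enzyme of the pentose phosphate pathway, and malic enzyme Me1 both had 0.40, and Pgd, which acts later in that pathway, had 0.42 with groups that overlapped.

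The list for removal of superoxide and peroxide also held genes whose products act only indirectly, such as Hmox1 and thioredoxins. Of its 17 tested genes, 8 rose and 1 fell, or 52.9% called against 30.5% of all genes. Catalase, encoded by Cat, rose from 121 ± 4.21 to 167 ± 4.06 CPM (SD, n = 3 per group), and its log2 fold change was 0.47, and Hmox1, heme oxygenase, had 0.26. Prdx6, a peroxiredoxin, was lower by 0.08 (log2 fold change -0.08, edgeR adjusted p = 0.0394) with groups that overlapped, and it lost its call in 4 of the 6 fits without 1 library. Genes for charge and pH compensation other than Hvcn1 were called in both directions, with 3 of 10 higher and 3 lower, or 60.0%. Slc4a7, a bicarbonate transporter, and Clcn7, a lysosomal chloride transporter, fell, with log2 fold changes of -0.21 and -0.14. Lrrc8d, a subunit of volume-regulated anion channels, and the chloride transporter gene Clcn3 rose, with 0.14 and 0.08, and without CON replicate 1 the list had 1 higher gene in place of 3. Of 8 genes of granule and burst-associated proteins, 2 were tested. Nos2, inducible nitric oxide synthase, rose from 597 ± 12.4 to 641 ± 38.4 CPM (SD, n = 3 per group), and its log2 fold change was 0.10 (edgeR adjusted p = 0.00687), a call that was lost with DESeq2 and without sTREM-1 replicate 3. Mpo, Epx, Ltf and S100a9 were at 0 counts in all libraries.

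**Figure D4:**
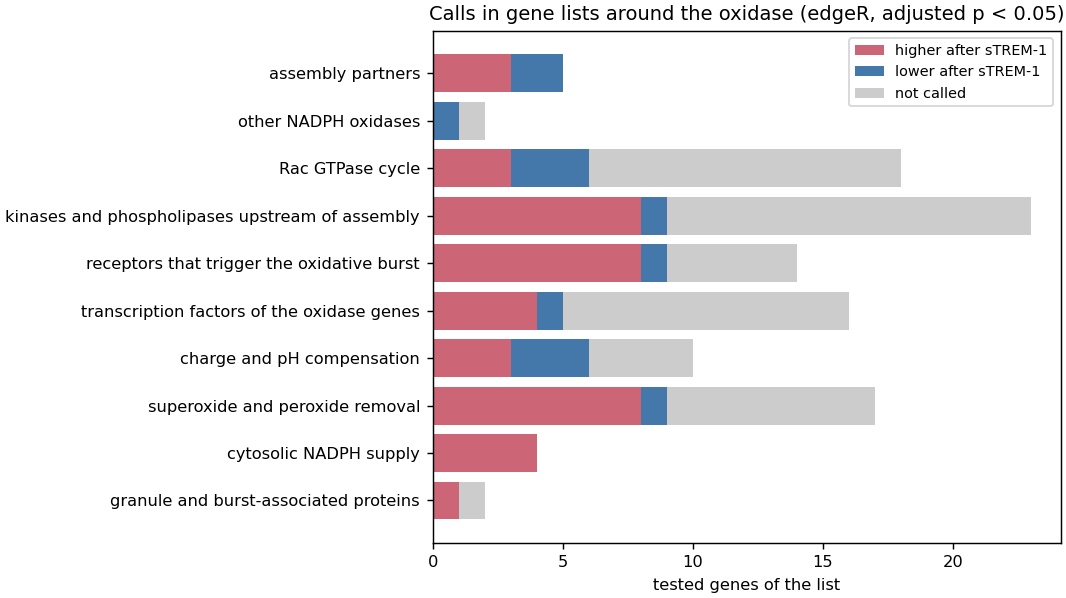
Number of tested genes (horizontal axis) of each gene list around the oxidase that were called higher, called lower or not called at an edgeR adjusted p-value under 0.05. All 4 NADPH supply genes were higher, while the Rac GTPase cycle had 3 higher, 3 lower and 12 not called. Among all tested genes 30.5% were called, 16.5% as higher.

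The genes whose pattern was most like that of Cybb over the 6 libraries were found by Pearson correlation of log2 CPM among 9053 other tested genes with a mean of at least 10 CPM. They were Gsn, Pgm2, Taldo1, Sod2 and Psat1, with r between 0.9985 and 0.9996. The libraries share 2 groups, so such values mostly follow the difference between the groups. Gsn encodes gelsolin, which severs actin filaments, and had a log2 fold change of 0.55. Taldo1 encodes transaldolase of the pentose phosphate pathway and had 0.26, and Sod2, mitochondrial superoxide dismutase, rose from 81.3 ± 2.69 to 107 ± 0.737 CPM (SD, n = 3 each). Pgm2, a phosphoglucomutase, and Psat1, an enzyme of serine synthesis, had log2 fold changes of 0.54 and 0.15. A mean of the 4 called oxidase genes was also taken, each standardized and Hvcn1 not reversed in sign. The fall of Hvcn1 thus offset part of the rise of the others in this mean. The genes closest to it were Lyl1, Glb1, Nt5c, Cenpi and Dpp3, with r between 0.9947 and 0.9993. Their log2 fold changes were 0.16 to 0.27.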

How the data were processed

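RNA of 6 BV2 libraries was sequenced by the authors, 3 in each group per the labels, while the paper's methods give another number. According to the methods, FastQC served for read quality, RSEM for quantification and edgeR for differential expression. The submitters' processing notes list HISAT2 2.0.4 and the human builds hg19 and GRCh38 with no role, although the deposited gene symbols are those of mouse. The annotation and the strand setting are not given in the sources used here. The deposited values are raw counts, whole numbers for each gene symbol, and all columns were used.

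Low genes were removed by filterByExpr (minimum count 10) and libraries scaled by TMM. Group was the only term in the quasi-likelihood fit (edgeR 4.0.16, R 4.3.3). Standard errors were the log2 fold change over the root of F. Log2 CPM used a prior count of 2. Coordinates and lengths are from GENCODE M21 on GRCm38, and promoters from RefSeq on GRCm38.p6. Intervals and floors (3 counts where a gene is at 0) of single libraries cover counting error only. Procedures were tested on simulated data.

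The members and gene lists were chosen with earlier results of these data known. Besides the members, at most 2 called genes per list and direction with the smallest p-values are named, any gene of lists of up to 10 genes, the 5 genes most like Cybb, the 5 most like the mean of the called members, and markers. A few genes selected in this way are not reported here. Alternatives were RLE size factors, no filter on low counts, DESeq2 1.42.0, a replicate block, leaving out each library, and coding length.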

Additional observations from a re-analysis of the deposited data

How the results depend on the processing

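The 6 oxidase genes kept their side of the threshold in all 10 other fits (RLE size factors, no filter on low counts, DESeq2, a replicate block and 6 fits that each left out 1 library), and 4 were called in each. Their direction stayed the same except for Rac2, which was not called in any fit and was -0.0058 without sTREM-1 replicate 3, with a range of -0.0058 to 0.027 over the fits that left out 1 library. Over those 6 fits, the values were 0.42 to 0.45 for Cybb, 0.34 to 0.38 for Ncf1, 0.16 to 0.22 for Ncf4 and 0.0079 to 0.034 for Cyba.

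Of all genes, 4312 were called, against 3817 with DESeq2 and 3608 to 3863 without 1 library. With the replicate block 4613 were called, of which 4289 were among the 4312. Across genes, the deviations from the group mean of libraries with the same number had correlations of -0.018, -0.034 and -0.014, so the numbers were not taken as pairs, and no CON library correlated best with the sTREM-1 library of its own number. For the kinases and phospholipases, 2 genes were lower with RLE size factors, with DESeq2 and with the replicate block, in place of 1. For granule and burst-associated proteins, 0 genes were called and 0 were higher with DESeq2. Over the fits without 1 library, the number of lower kinases and phospholipases ran from 0 to 2, of lower superoxide and peroxide removal genes from 0 to 1, of higher genes of charge and pH compensation from 1 to 3, and of higher and of lower granule and burst-associated genes from 0 to 1 each. The cause of these shifts was not tested.

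Per kilobase of coding length, the CON levels were 156 CPM for Cybb, 605 for Cyba, 123 for Ncf1, 94.1 for Ncf4, 469 for Rac2 and 20.3 for Hvcn1, since the coding parts are shorter than the transcripts. Depth limits Hvcn1 most, as it had 481 to 733 counts per library. With 3 libraries per group, the ratios could not pass a threshold of 0.05 in an exact test.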
